A study of Mus musculus with 5 samples.

Results

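The sites described here are places in the genome where the only listed peak was a c-Jun peak, and where that peak was listed in 1 treatment and not in the other. The sites were chosen by which of the 4 deposited lists held a peak there. Peaks of all 4 lists were merged into sites wherever they overlapped by at least 1 bp, which gave 44718 sites. A site was kept when 1 list alone contributed to it and that list was c-Jun with pioglitazone or c-Jun without it. This left 6702 sites: 3099 listed with pioglitazone only (pioglitazone-specific sites) and 3603 listed without pioglitazone only (TGF-β1-alone sites). Each held a single peak. A further 774 sites had c-Jun in both treatments and p300 in neither, and serve below as a comparison. Since presence and absence in the lists are what the sites were selected on, their number and their lack of p300 are descriptions of the lists.

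The cells were MS5 at passage 11, a long-established line of stromal cells from mouse bone marrow. In the pioglitazone group they received TGF-β1 at 10 ng/mL together with pioglitazone at 20 ng/mL, and in the other group TGF-β1 at 10 ng/mL alone, in both cases for 5 h, so that no group was free of TGF-β1. DNA bound by c-Jun or by p300 was recovered with antibodies from fixed chromatin and sequenced (ChIP-seq), with 1 library for each antibody and treatment, and the series also has a pooled input, which was not used here. Peak lists hold no expression values by which the identity of the cells could be checked. With 1 library per group no difference has a replicate check, and every interval below covers counting error only. Each is an exact 95% interval or one combined from such intervals. The exception is the difference taken step by step along the lists, whose 95% interval is a normal approximation.

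c-Jun is a subunit of AP-1, a dimeric transcription factor that binds short DNA elements and is induced within hours by growth factors, stress and cytokines, TGF-β1 among them. p300 is a histone acetyltransferase and coactivator that transcription factors recruit to active enhancers and promoters, and c-Jun is one of the proteins known to bind it. TGF-β1 drives stromal cells towards matrix deposition, and pioglitazone activates the nuclear receptor PPARγ, which promotes adipocyte genes and is known in other cells to restrain AP-1. A c-Jun peak with no p300 peak is thus a place where the factor was called and this coactivator was not.

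The 2 groups and the sites found in both treatments divide all sites with c-Jun and no p300. Of these 7476 sites, 774 were listed with and without pioglitazone, which is 10.4% (9.67 to 11.1). With every list cut to its upper 50% of rows and merged anew, 21.1% of the c-Jun-only sites then found were listed in both treatments. Of all 22477 sites with c-Jun, p300 or not, 7892 were listed in both treatments, 35.1% (34.5 to 35.7). Pioglitazone-specific sites made up 41.5% (40.3 to 42.6) of the 7476 and TGF-β1-alone sites 48.2% (47.1 to 49.3). The pioglitazone-specific sites were 23.3% of the 13325 c-Jun peaks with pioglitazone, in a list of which 41.6% of peaks overlapped no c-Jun peak of the other treatment. The TGF-β1-alone sites were 21.1% of the 17044 c-Jun peaks without pioglitazone, of which 54.3% overlapped none with it. Since the rule used this contrast, nothing is read from these shares. Which group was larger depended on the length of the lists. With the longer list of each antibody shortened from its end to the length of the shorter, there were 3611 pioglitazone-specific and 2401 TGF-β1-alone sites.

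Some members lay at the edge of the rule. The closest pioglitazone-specific site to a c-Jun peak of the other treatment, on chromosome 13 (90686595 to 90686829), missed it by 2 bp, and the closest TGF-β1-alone site, on chromosome 5 (122997024 to 122997272), missed by 1 bp. In both groups the closest site to a p300 peak touched it without sharing a base. Gaps under 50 bp to a c-Jun peak of the other treatment were found at 42 pioglitazone-specific and 33 TGF-β1-alone sites. On the other side of the rule, the smallest overlap that joined the 2 c-Jun lists at a p300-free site was 1 bp, and 33 such sites overlapped by less than 50 bp.

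Both groups were made up mainly of peaks from the later rows of the c-Jun lists. The deposited score is 1 for every peak, so the order of the rows stands in for strength here. The key by which they were sorted is not stated in the sources used here. The place of c-Jun peaks also differed by chromosome, the Y aside. Its median ran from 30.9% on chromosome 19 to 72.2% on the X with pioglitazone. Without it the range was 32.2% on chromosome 10 to 75.6% on the X. The median pioglitazone-specific site stood 71.6% of the way down its list (quartiles 51.7% and 86.2%) and the median TGF-β1-alone site 74.4% down (55.9% and 87.9%). The c-Jun-only sites found in both treatments stood at a median of 42.6% in the list with pioglitazone and 44.0% in the list without it. A late place was not particular to sites without p300. c-Jun peaks of 1 treatment, with p300 or not, numbered 72 in the first 10% of rows and 853 in the last with pioglitazone. Without it they numbered 156 and 1397. In the first 10% of its list each group was rare: 30 pioglitazone-specific sites (0.968% of the group, 0.654 to 1.38) and 21 TGF-β1-alone sites (0.583%, 0.361 to 0.890) stood there. Of the 774 sites found in both treatments, 186 were among the first 10% of c-Jun rows with pioglitazone and 167 among those without it. The share in the upper 50% of the list was 23.4% (21.9 to 25.0) for pioglitazone-specific sites and 19.7% (18.4 to 21.0) for TGF-β1-alone sites, a difference of 3.78 percentage points (1.78 to 5.78). The difference was 3.79 points (1.70 to 5.85) at equal list lengths. It was not set against the same share for all c-Jun peaks of 1 treatment.

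**Figure D1:**
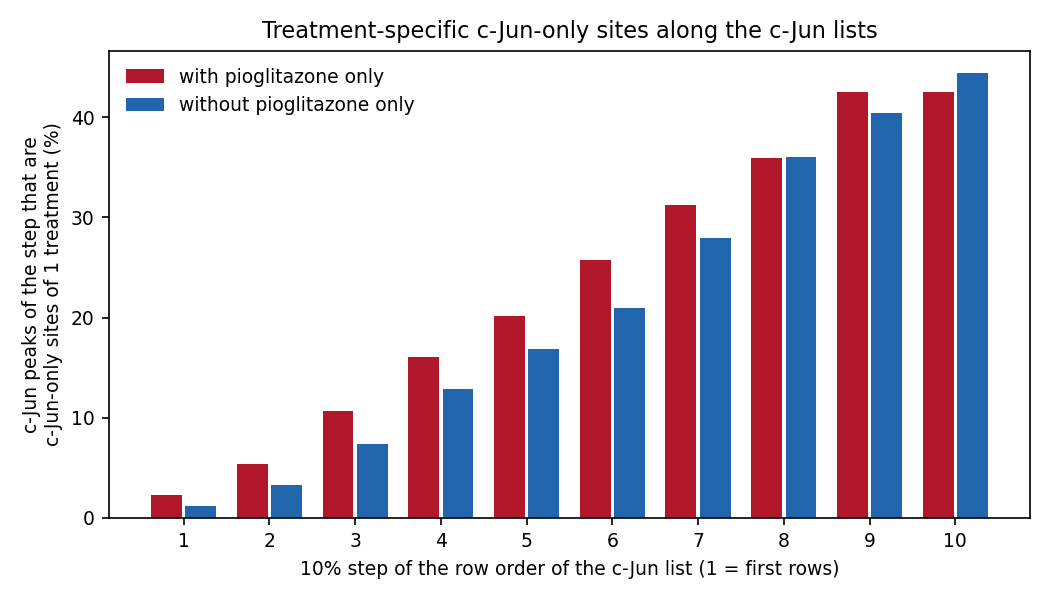
Share of the c-Jun peaks in each 10% step of a c-Jun list (x axis, first rows at the left) that were treatment-specific c-Jun-only sites (y axis, percent), for sites listed with pioglitazone only and without pioglitazone only. The share is 2.25% with pioglitazone and 1.23% without it in the first step, and 42.6% and 44.4% in the last.

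The members can be placed among all c-Jun sites of 1 treatment, of which they are those without p300. The rule used the absence of p300, so the shares that follow describe the lists and support nothing about the members. Of 5433 sites with c-Jun in the pioglitazone list only, 3099 had no p300 peak of either treatment, 57.0%. Of 9152 sites with c-Jun in the TGF-β1-alone list only, 3603 had none, 39.4%. Over all c-Jun peaks of a list, whether or not listed in the other treatment, the shares without p300 lay closer together, at 29.1% of 13325 with pioglitazone and 25.7% of 17044 without it. Where c-Jun was found in both treatments, 774 of 7892 sites lacked p300, 9.81%.

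The share without p300 was larger in the later rows of both lists. In the first 10% step 41.7% of 72 c-Jun peaks with pioglitazone only were free of p300, against 13.5% of 156 peaks without pioglitazone only. In the last step the shares were 66.5% of 853 and 54.2% of 1397.

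**Figure D2:**
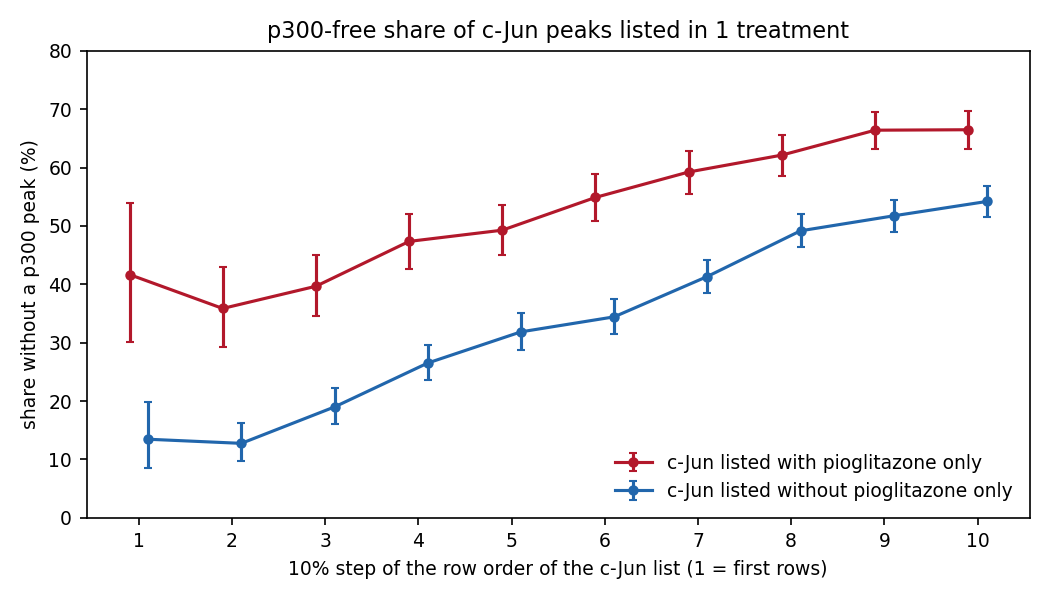
Share of c-Jun peaks listed in 1 treatment that lay in a site without any p300 peak (y axis, percent), by 10% step of the c-Jun list (x axis, first rows at the left). Points are shares and bars exact 95% intervals for counting error. The pioglitazone points run from 41.7% in the first step to 66.5% in the last, above those without pioglitazone (13.5% and 54.2%) in each step.

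The sites with p300 account for the rest of these c-Jun sites. p300 was listed in both treatments at 22.8% (21.7 to 23.9) of c-Jun sites with pioglitazone only and at 35.1% (34.2 to 36.1) of those without pioglitazone only. p300 in the TGF-β1-alone list alone was found at 14.4% (13.5 to 15.4) and 20.6% (19.8 to 21.5), and p300 in the pioglitazone list alone at 5.76% (5.16 to 6.41) and 4.86% (4.43 to 5.32). Sites where c-Jun and p300 were each listed with pioglitazone and neither without it numbered 313. The p300 list with pioglitazone is the shorter one, with 21994 peaks against 31466.

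A p300 peak often lay next to these sites without overlapping them. Within 1 kb, centre to centre, a p300 peak of either treatment was found at 569 of 3099 pioglitazone-specific sites, 18.4% (17.0 to 19.8), and at 672 of 3603 TGF-β1-alone sites, 18.7% (17.4 to 20.0). The shares differed by -0.29 points (-2.17 to 1.60). Taken step by step along the lists the difference was -0.83 points (-2.69 to 1.03). At equal list lengths the shares were 15.7% and 18.5%, a difference of -2.80 points (-4.80 to -0.84). At c-Jun-only sites found in both treatments, 27.4% (24.3 to 30.7) had p300 within 1 kb of the c-Jun centre with pioglitazone. Members higher in the c-Jun list had p300 nearby more often: 24.4% (21.3 to 27.7) of pioglitazone-specific sites in the upper 50% of rows and 16.5% (15.0 to 18.1) of those below. For TGF-β1-alone sites the shares were 27.0% (23.7 to 30.4) and 16.6% (15.3 to 18.0).

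The neighbouring p300 peaks were concentrated just outside the width of a peak. Per 1000 pioglitazone-specific sites, 72.0 p300 peaks with pioglitazone and 85.8 without it had their centre 250 to 500 bp away. The same step held 66.6 and 71.3 such peaks per 1000 TGF-β1-alone sites. Between 4000 and 5000 bp the mean per step of 250 bp was 9.92 and 13.0 around pioglitazone-specific sites and 8.53 and 11.6 around TGF-β1-alone sites. The density near the sites was thus 6.61 to 7.25 times that farther out in the first group and 6.16 to 7.80 times in the second. Steps nearer than 250 bp were almost empty because overlapping p300 excludes a site. Between 250 and 500 bp, c-Jun peaks of the other treatment numbered 56.8 per 1000 pioglitazone-specific and 34.4 per 1000 TGF-β1-alone sites, and those of a site's own list 4.19 and 1.67. The own list was densest in the next step, 500 to 750 bp, with 21.9 and 23.0 peaks per 1000, and its mean between 4000 and 5000 bp was 2.90 and 5.76.

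**Figure D3:**
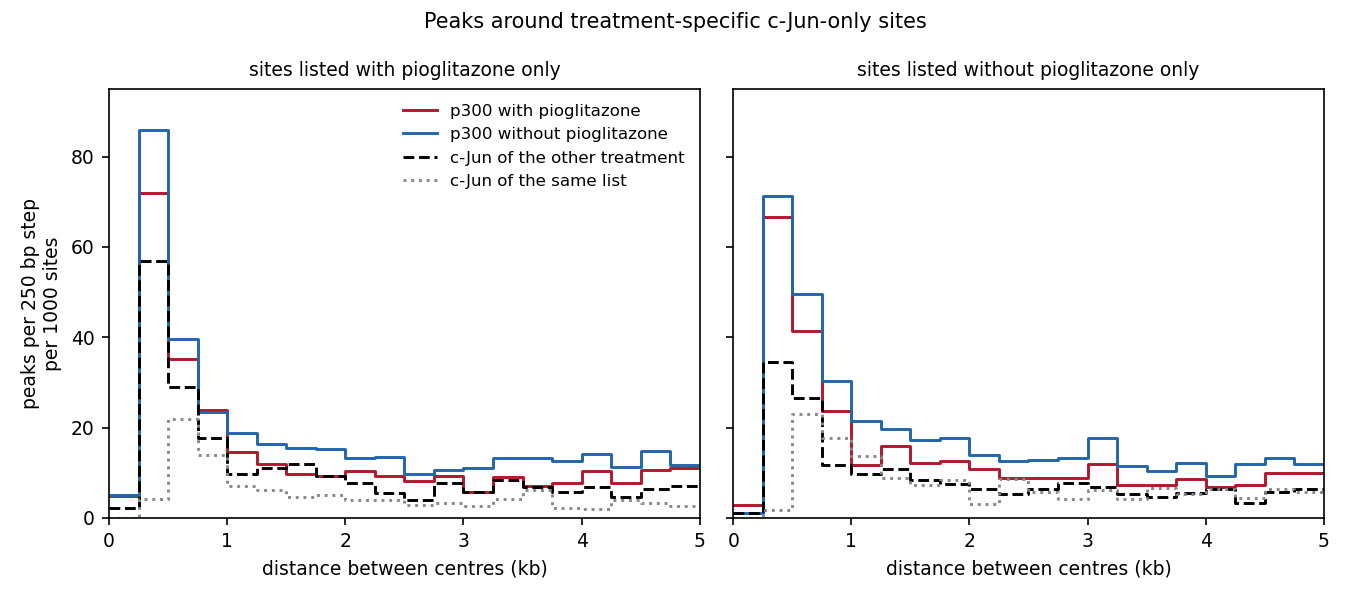
Number of peaks per 250 bp step per 1000 sites (y axis) by distance between centres in kb (x axis), around sites listed with pioglitazone only (left) and without pioglitazone only (right), for each p300 list, the c-Jun list of the other treatment and the site's own c-Jun list. Both p300 lists are highest between 250 and 500 bp, at 72.0 and 85.8 peaks on the left and 66.6 and 71.3 on the right.

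The treatment in which nearby p300 was listed differed between the groups by no more than counting error. The peaks of the 2 p300 lists were sought separately around each site and need not overlap each other. Among the 569 pioglitazone-specific sites with p300 within 1 kb, 51.0% (46.8 to 55.1) had peaks of both p300 lists there. Peaks with pioglitazone only lay there at 20.0% (16.8 to 23.6) and peaks without it only at 29.0% (25.3 to 32.9). Among the 672 TGF-β1-alone sites the shares were 49.9% (46.0 to 53.7), 20.2% (17.3 to 23.5) and 29.9% (26.5 to 33.5). The 2 groups differed by 1.12 points (-4.57 to 6.80) for peaks of both p300 lists nearby. For p300 with pioglitazone only they differed by -0.20 points (-4.77 to 4.41), and for p300 without it only by -0.91 points (-6.09 to 4.30). These intervals leave room for differences of several points. Within 12 kb and a further 500 bp, the distance used below to join neighbouring peaks into domains, 57.6% (55.8 to 59.3) of pioglitazone-specific and 59.5% (57.9 to 61.1) of TGF-β1-alone sites had p300. Of these, 65.3% and 65.9% had peaks of both p300 lists within that distance, again not necessarily at the same place.

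The nearest p300 peak within 1 kb held a c-Jun peak of its own at 43.9% (39.8 to 48.1) of the 569 pioglitazone-specific and 32.4% (28.9 to 36.1) of the 672 TGF-β1-alone sites. Over all p300 peaks that share was 51.1% with pioglitazone and 44.4% without it. The nearby p300 peak held c-Jun of the other treatment only at 28.6% (25.0 to 32.6) of the 569 pioglitazone-specific sites, and at 16.7% (13.9 to 19.7) of the 672 TGF-β1-alone sites. At these places c-Jun was listed on the p300 peak in one treatment and beside it in the other. The difference was 12.0 points (7.21 to 16.8), but 3.99 (-1.29 to 9.17) at equal list lengths and 8.54 (-0.40 to 17.5) with every list cut to its upper 50%. c-Jun of the same treatment only was found on the p300 peak at 4.57% (3.01 to 6.62) of the pioglitazone-specific and 6.70% (4.93 to 8.86) of the TGF-β1-alone sites. Peaks of 1 list seldom lie so close together. Between 250 and 500 bp, only 4.19 and 1.67 own-list peaks were found per 1000 sites. The same-treatment shares were thus held low in advance and cannot be set against those for the other treatment. Whether c-Jun moved between treatments was not tested. The p300 peak held no c-Jun at 56.1% (51.9 to 60.2) and 67.6% (63.9 to 71.1).

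A c-Jun peak of the other treatment lay within 1 kb of 319 pioglitazone-specific sites, 10.3% (9.25 to 11.4), and of 263 TGF-β1-alone sites, 7.30% (6.47 to 8.20). The median distance was 463 bp in the first group and 519 bp in the second. The difference of 2.99 points (1.61 to 4.39) turned to -0.99 (-2.46 to 0.44) at equal list lengths, where the shares were 7.67% and 8.66%. Of these neighbouring c-Jun peaks, 74.0% (68.8 to 78.7) beside pioglitazone-specific sites and 67.3% (61.3 to 72.9) beside TGF-β1-alone sites overlapped p300. The first neighbours come from the c-Jun list without pioglitazone, of which 74.3% overlapped p300. The second come from the list with pioglitazone, of which 70.9% did, so both shares are near those over whole lists. Members of the other group made up 24.8% (20.1 to 29.9) and 30.4% (24.9 to 36.4) of the neighbours. Over those whole lists, members made up 21.1% and 23.3%. The large majority of both groups thus had no c-Jun peak of the other treatment close by: the median distance to one was 20355 bp for pioglitazone-specific and 26995 bp for TGF-β1-alone sites.

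Pairs of sites from the 2 groups lay side by side at a few places. The closest pair was on chromosome 4, where the pioglitazone-specific site at 22347998 to 22348232 (row 7457) and the TGF-β1-alone site at 22347747 to 22347995 (row 16355) had centres 244 bp apart. On chromosome 2 the pioglitazone-specific site at 74535743 to 74535977 (row 6464) and the TGF-β1-alone site at 74535982 to 74536230 (row 5818) were 246 bp apart. In both pairs the peaks missed each other by a few bases.

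Of the 10 pioglitazone-specific sites highest in their list, 1 had a c-Jun peak of the other treatment within 1 kb, 3 had p300 within 1 kb, and 4 had no peak of any other list within that joining distance. The first, on chromosome 8 (19994336 to 19994570), was at row 268 of 13325. Its nearest p300 peak without pioglitazone was 25938 bp away, and its nearest with pioglitazone 1202484 bp away. The TGF-β1-alone site at 19995655 to 19995903 lay 1326 bp from it, at row 227 of 17044, and a further TGF-β1-alone site at 19871574 to 19871822 stood at row 341. This stretch of chromosome 8 thus held 3 of the 20 sites named here, from both groups, far from p300 with pioglitazone.

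The other leading pioglitazone-specific sites differed in their surroundings. The sites on chromosome 17 (28465400 to 28465634, row 409) and chromosome 1 (90967033 to 90967267, row 425) lay beside p300 in both treatments, with p300 with pioglitazone 342 and 927 bp away and p300 without it 313 and 962 bp away. On chromosome 10 (117147090 to 117147324, row 636), p300 with pioglitazone was 407 bp away and p300 without it 7654 bp. The site on chromosome 5 at 125870246 to 125870480 (row 864) had the nearest peaks of all other lists between 3132 and 3161 bp away.

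The remaining 5 of the leading pioglitazone-specific sites had no p300 within 9 kb. They lay on chromosome 10 (128358957 to 128359191, row 671, and 127529584 to 127529818, row 828), chromosome 13 (74840769 to 74841003, row 732), chromosome 5 (123616063 to 123616297, row 777) and chromosome 8 (86192341 to 86192575, row 925). The site at row 777 was the farthest of these from c-Jun of the other treatment, with no c-Jun peak without pioglitazone closer than 160453 bp. No gene is given for any of these positions.

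Of the 10 leading TGF-β1-alone sites, 2 had c-Jun with pioglitazone within 1 kb, 3 had p300 within 1 kb, and 2 had no peak of any other list within the joining distance. The first, on chromosome 16 (57391519 to 57391767), stood at row 114 of 17044, with p300 with pioglitazone 28121 bp away and p300 without it 12648 bp away. On chromosome 9 (35294359 to 35294607, row 906) and chromosome 17 (75509898 to 75510146, row 1143), c-Jun with pioglitazone was listed 267 and 309 bp away, beside p300 in both treatments. At these 2 sites the c-Jun peak with pioglitazone stood at rows 1201 and 1261 of 13325, so that c-Jun was listed high in both lists at slightly different positions.

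On chromosome 5 (125561572 to 125561820, row 511) p300 with pioglitazone was 377 bp and p300 without it 499 bp away, and c-Jun with pioglitazone 8690 bp away. On chromosome 10 (79626616 to 79626864, row 283) p300 lay 2037 bp away with pioglitazone and 2045 bp without it, and c-Jun with pioglitazone 59563 bp away. The others were on the X chromosome (166434945 to 166435193, row 858), chromosome 15 (101845394 to 101845642, row 912) and chromosome 10 (127058843 to 127059091, row 1206). At the last of these p300 was 5471 bp away with pioglitazone and 5489 bp without it, and c-Jun with pioglitazone 331316 bp away.

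Over the first 10% of the lists, 12 of 30 pioglitazone-specific and 6 of 21 TGF-β1-alone sites had p300 within 1 kb. c-Jun of the other treatment was within 1 kb of 7 and 3 of them. No p300 peak and no c-Jun peak of the other treatment lay within the joining distance of 8 of the 30 pioglitazone-specific and 4 of the 21 TGF-β1-alone sites.

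Joined only with one another, members of a group mostly stood singly. When members of 1 group with centres no farther apart than the joining distance were put together, the 3099 pioglitazone-specific sites formed 2962 domains, of which 2831 held 1 site, 125 held 2 and 6 held 3. The 3603 TGF-β1-alone sites formed 3420 domains, of which 3243 held 1 site, 171 held 2 and 6 held 3. No domain of either group held more than 3. Another member of its group lay within the joining distance of 8.65% of pioglitazone-specific and 9.99% of TGF-β1-alone sites. Any other peak of the site's own c-Jun list lay there at 28.0% and 33.4%. Members are a part of each c-Jun list, and whole c-Jun lists were not joined for comparison. The single standing is thus not shown to be particular to the members. When the peaks of all 4 lists were joined in the same way, 5866 of 25240 domains held at least 1 member, 426 of them members of both groups. A lone pioglitazone-specific peak was the whole domain in 1034 cases and a lone TGF-β1-alone peak in 1186. Within 50 kb, 93.7% (92.8 to 94.5) of pioglitazone-specific and 94.1% (93.2 to 94.8) of TGF-β1-alone sites had some other peak of the 4 lists.

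Among the domains with 3 members of a group, some held c-Jun of 1 treatment and nothing else. On chromosome 9 (67170623 to 67189745) and chromosome 1 (183849759 to 183860574), 3 c-Jun peaks were listed with pioglitazone and 0 without it, and no p300 peak was listed in either treatment within the joining distance of the domain. The reverse was found on the X chromosome (94564678 to 94573507) and chromosome 4 (134115092 to 134125902), where 0 c-Jun peaks were listed with pioglitazone and 3 without it, again with no p300. The best placed of these 12 peaks stood at row 6307 of 13325, so all came from the middle or later rows of their lists.

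Other domains with 3 members of a group had other peaks as well. On chromosome 9 (75279173 to 75295560), the pioglitazone-specific domain with the highest-placed member (row 1895), c-Jun peaks numbered 5 with pioglitazone and 3 without it, and p300 peaks 2 and 1. On chromosome 7 (99784787 to 99806462) c-Jun peaks numbered 4 with pioglitazone and 1 without it, with 1 p300 peak in each treatment. On chromosome 2 (145605194 to 145623845) c-Jun peaks numbered 0 with and 3 without pioglitazone, and p300 peaks 0 and 1. On chromosome 18 a TGF-β1-alone domain of 3 sites had 3 p300 peaks nearby in both treatments.

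Some domains held members of both groups. On chromosome 5 (54029717 to 54043752) 3 pioglitazone-specific and 2 TGF-β1-alone sites lay together with no other peak, and on chromosome 2 (73698341 to 73714106) there was 1 pioglitazone-specific site and 3 TGF-β1-alone sites. On chromosome 14 (73962130 to 73983816) the domain held 3 and 2. Such domains made of members of both groups and nothing else numbered 122.

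By chromosome the 2 groups kept nearly the same proportion. TGF-β1-alone sites were the more numerous on all 20 chromosomes other than the Y, which held 1 pioglitazone-specific site and no TGF-β1-alone site. The list without pioglitazone is also the longer one, and at equal list lengths pioglitazone-specific sites are the more numerous over the genome. Pioglitazone-specific sites made up 46.2% (45.0 to 47.4) of members over the genome, between 41.5% (35.2 to 48.0) on chromosome 18 and 49.9% (44.7 to 55.0) on chromosome 9. The interval of each of these 20 chromosomes held the genome-wide share. Peaks with pioglitazone made up 43.9% of the peaks of both c-Jun lists, and on 17 of the 20 chromosomes their share among the members was above their share of that chromosome's c-Jun peaks.

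As a share of all c-Jun peaks on a chromosome, again without the Y, members were commonest on chromosome 4 among the pioglitazone-specific sites, with 167 of 563 peaks or 29.7% (25.9 to 33.6), and on chromosome 12 among the TGF-β1-alone sites, with 162 of 594 or 27.3% (23.7 to 31.0). c-Jun peaks of chromosome 4 stood low in the lists, at a median of 69.7% with pioglitazone and 70.4% without it. The number of members that its peaks' places in the lists would give, taking the genome-wide share in each 10% step, was 169 with pioglitazone, where 167 were found, and 217 without it, where 201 were found. Against the same measure and with the Y left aside, chromosome 13 had the lowest ratio of members found in both groups, with 134 found and 183 from list place with pioglitazone (a ratio of 0.733) and 162 found and 212 from list place without it (0.765). Chromosome 19 had the highest ratio with pioglitazone, 1.35 from 99 sites, and chromosome 17 the highest without it, 1.26 from 160 sites. These chromosomes also differed in list place. With and without pioglitazone the median place was 57.4% and 57.0% on chromosome 13, 30.9% and 33.9% on chromosome 19, and 42.1% and 40.8% on chromosome 17. The measure takes a row place to mean the same on every chromosome, which was not tested.

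**Figure D4:**
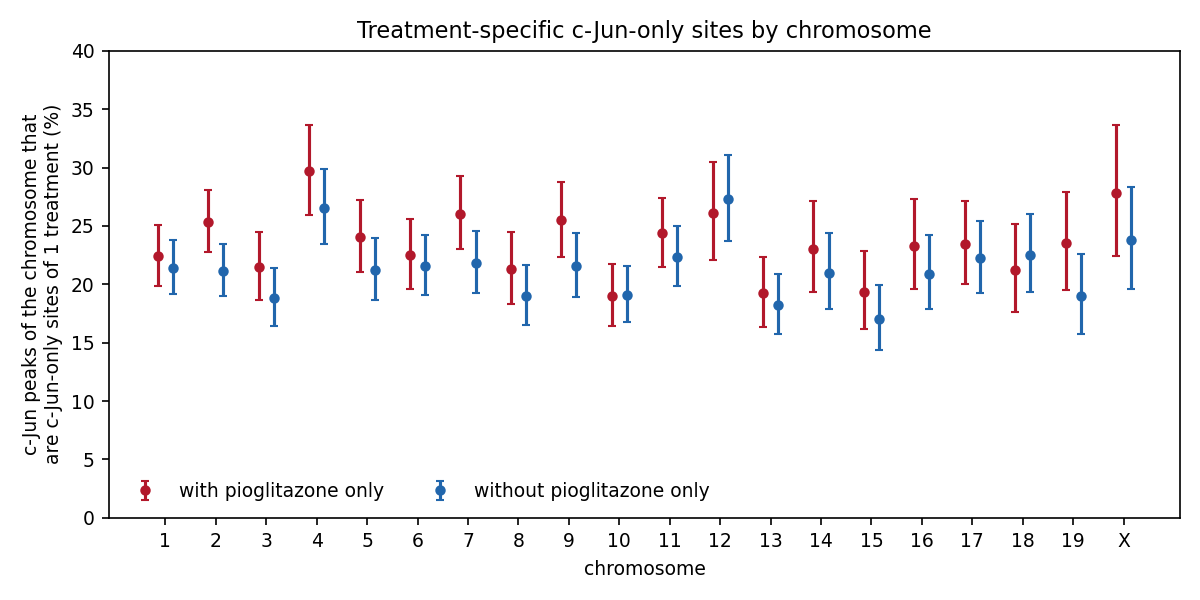
Share of the c-Jun peaks on each chromosome (x axis) that were c-Jun-only sites of 1 treatment (y axis, percent), for sites listed with pioglitazone only and without pioglitazone only, with exact 95% intervals for counting error. Chromosome 4 reaches 29.7% with pioglitazone and 26.6% without it, and chromosome 13 stands at 19.2% and 18.2%. The Y chromosome, with 1 c-Jun peak per list, is not drawn.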

How the data were processed

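The peak lists were deposited by the authors, 1 per ChIP library, with a start, an end, a name and a score. The deposited score is 1 in every row and was not used as strength. The submitters' processing notes name HOMER, Bowtie2 (version 2.3.4.3) and SAMtools (version 1.9), and the build mm9. Settings and any use of the input are not stated there. Positions are mm9, counted from 1. Each list has 42 to 103 peaks past the end of the last chromosome 7 gene in the GRCm38 table at hand, and no mm9 sequence or annotation was used, so sites carry no gene names, promoter shares, motifs or printed bases. Depth is unknown. All peaks of a list have 1 width: 235 bp (c-Jun with pioglitazone), 249 bp (c-Jun without), 227 bp (p300 with) and 247 bp (p300 without).

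Sites were merged in Python (version 3.11.15; numpy 2.4.6, pandas 2.3.3, scipy 1.17.1, matplotlib 3.10.9). bedtools (version 2.31.1) gave the same number of sites in each group. The functions were tested on simulated data. Shares have Clopper-Pearson intervals. Differences combine these, or use Mantel-Haenszel weights within 10% steps of row order. Row order followed the number in each peak's name within all 20 chromosomes with more than 10 peaks (Spearman's rho 0.823 to 0.967). Named sites are the 10 first rows of each group and the 5 domains with most members, equal domains being ordered by their best row. Closest pairs and mixed domains were chosen after their values were seen. The members and measures were chosen with earlier results of these data known.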

Additional observations from a re-analysis of the deposited data

How the results depend on the processing

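Over 68 alternative values, 27 stayed close to the reported one, 40 moved and 1 turned its sign. The causes were not tested. Cutting every list left fewer sites of both groups, but shortening only the lists without pioglitazone raised the pioglitazone-specific sites from 3099 to 3611. The number of pioglitazone-specific sites was 3774 when an overlap of at least 50% of the shorter peak was asked for, and 2685 and 2450 with centres within 500 and 1000 bp joined. That of TGF-β1-alone sites was 4495, 3187 and 2843. With every list cut to its upper 50% the numbers were 1187 and 1381, and among the upper 50% of each c-Jun list against the full other lists 726 and 708. At equal list lengths, TGF-β1-alone sites numbered 2401 and pioglitazone-specific sites 3611.

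The share in the upper 50% of the list was 21.5% and 17.5% with centres within 1000 bp joined, and 18.2% for TGF-β1-alone sites at equal list lengths. c-Jun of the other treatment lay within 500 bp, 5000 bp and the joining distance of 5.81%, 20.1% and 37.8% of pioglitazone-specific and 3.52%, 16.9% and 32.9% of TGF-β1-alone sites, with a difference of 4.92 points at the joining distance. At equal list lengths the shares within 1000 bp were 7.67% and 8.66%, and the difference turned to -0.99 points. p300 lay within the same distances of 11.7%, 36.5% and 57.6% of pioglitazone-specific and 10.2%, 38.0% and 59.5% of TGF-β1-alone sites. At equal list lengths it lay within 1000 bp of 15.7% of pioglitazone-specific sites, and the difference was -2.80 points.

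The share without p300 among c-Jun sites of 1 treatment was a measure added after seeing the data. It was 62.3% with and 46.0% without pioglitazone at an overlap of 50%. With centres within 500 bp it was 52.8% and 36.2%, and within 1000 bp 51.3% and 33.8%. In the upper 50% of every list it was 52.1% and 33.4%. Its difference lay between 16.3 and 19.5 points, the highest at equal list lengths. The rule used the absence of p300, so these values describe the lists and support nothing about the members. c-Jun-only sites found in both treatments were 8.89% of all such sites at an overlap of 50%, 12.2% at equal list lengths and 21.1% in the upper 50%. Also added later, nearby p300 peaks holding only c-Jun of the other treatment came to 23.8% and 19.8% at equal list lengths, a difference of 3.99 points. The promoter and motif alternatives were not run, since no mm9 annotation or sequence was used. No paired analysis was possible because each group is 1 library. Without read counts, depth cannot be told apart from treatment as a source of a longer list.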
